A study of Ursus arctos with 5 samples.

Results

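The genes described here encode slow and fast isoforms of the myosin thick filament and of the proteins that bind it: MYH7 (ENSG00000092054), MYH7B (ENSG00000078814), MYL3 (ENSG00000160808), MYBPC1 (ENSG00000196091) and MYBPC2 (ENSG00000086967). Every assembled bear transcript that carried one of these 5 names was taken, which gave 20 of 9093 named transcripts and of 26614 transcripts in all. MYH7 and MYL3 had 1 transcript each, MYH7B and MYBPC1 had 7 each, and MYBPC2 had 4. In both bears the 7 MYH7B transcripts were higher in hibernation and the 4 MYBPC2 transcripts were lower, while the levels of MYH7, MYL3 and most MYBPC1 transcripts overlapped between the states.

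Gastrocnemius RNA was sequenced from 2 captive grizzly bears, each biopsied under anaesthesia in October, when active and feeding, and again in February, when hibernating and without food. Each bear gave 1 single-end library in each state, which makes n = 2 bears per state with no replicate within a bear. The study names the bears a subadult and an adult, whereas the sample labels give both as adults of 10 years and hold both bears in 1 single-end sample per state. The bears were therefore told apart by the column names of the deposited table, which call them Tia and Star and give no age class. Tia was taken as the subadult and Star as the adult from the study's supplement. Each bear stands for its age class alone, so bear, age class and the place of the biopsy cannot be told apart, nor can state, month and dose of anaesthetic.

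Skeletal muscle fibres contract as slow (type I) or fast (type II) fibres, largely according to the myosin heavy chain isoform whose ATPase drives the filament. A heavy chain works with essential and regulatory light chains, and myosin-binding protein C lies along the thick filament and tunes how myosin heads meet actin. The gastrocnemius is a mixed muscle of the calf that holds both fibre kinds, and disuse or unloading typically moves limb muscle of laboratory rodents from slow towards fast isoforms.

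The levels are RPKM (reads per kilobase, scaled to the number of reads aligned in a library), which takes account of transcript length. Levels of different assembled transcripts still compare only roughly. The 7 of MYH7B, all matched to the same human transcript, spanned 19.2 to 158 RPKM in the hibernating subadult. The 4 libraries held 44.7 to 54.2 M (mega) aligned reads by the steps of their low values, and each value of a member rested on 98 to 105912 reads. A log2 difference is the value of log2(RPKM + 0.5) in hibernation minus that in activity, so low transcripts appear to change less than they do. Every transcript of the deposited table lies at 1 RPKM or above in all libraries, so that any isoform falling under 1 RPKM in a library was not analysed here. Of 10 general skeletal muscle genes 4 carried a named transcript (TTN, ENO3, RYR1 and CACNA1S). Their lead transcripts stood at 155 to 7265 RPKM, and ACTA1, CKM, DES, MB, NEB and PYGM were not analysed here.

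The active subadult library stood apart in some markers of other cells. Of 11 fat-cell genes 4 carried a transcript (PLIN4, LPL, SCD and FASN), and their summed lead transcripts reached 493 RPKM in the active subadult against 112 in the active adult, 135 in the hibernating subadult and 130.5 in the hibernating adult. SCD, a fatty acid desaturase, made up 189 of the 493 RPKM. Among 8 connective tissue genes 5 had a transcript, summing to 373 RPKM in the active and 293 in the hibernating subadult, and to 177 and 249 in the adult. The defining fat-cell markers ADIPOQ, PLIN1, FABP4 and LEP were not analysed here. PLIN4 did not follow this order (71.2 RPKM in the active subadult, 62.3 to 105 elsewhere), and COL3A1 was lowest in the active subadult (116 RPKM), where COL1A1 alone reached 193. Since the active subadult library stood apart in some of these genes, the log2 differences of the lead transcripts are also given without it, whereas ratios, scores and gene lists rest on all 4 libraries. In bulk RNA, fewer fibres of a kind and less RNA per fibre cannot be told apart.

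MYH7 encodes the slow type I heavy chain, also called beta-cardiac myosin, and had the highest level of the 5 genes in every library. Its transcript isotig33669 (671 bases) stood at 2872 RPKM in hibernation and 3004 in activity in the subadult, and at 1295 and 1839 in the adult. The subadult was thus close to level between the states and the adult was lower in hibernation, but the states overlapped because the subadult exceeded the adult in both. The means were 2084 ± 1116 RPKM in hibernation and 2421 ± 824 in activity (SD, n = 2 bears). The log2 difference came to -0.06 for the subadult and -0.51 for the adult, with a mean of -0.29 (SE 0.53) and an adjusted p of 0.843 (limma, Benjamini-Hochberg over the 9093 named transcripts). Its sign depended on single libraries, being 0.29 without the hibernating adult and 0.07 without the active subadult. The difference between the bears, 2.22-fold in hibernation and 1.63-fold in activity, was larger than that between the states in either bear.

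MYL3 is the essential light chain of slow skeletal and ventricular muscle and followed MYH7 in the order of levels. Transcript isotig41694 (477 bases) measured 2679 RPKM in hibernation and 1968 in activity in the subadult, against 893 and 922 in the adult. It was higher in hibernation in the subadult alone, by 0.45 on the log2 scale, whereas the adult gave -0.05. State means were 1786 ± 1263 and 1445 ± 739 RPKM (SD, n = 2 bears), for a log2 difference of 0.20 (SE 0.65, limma adjusted p = 0.913). Without the hibernating subadult the value was -0.59, without the active adult -0.35 and without the active subadult 0.75. As with MYH7, the bears lay further apart than the states, the subadult holding 3.00 times the adult level in hibernation and 2.13 times in activity.

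MYH7B encodes an evolutionarily old slow tonic heavy chain related to MYH7, known from extraocular muscle and muscle spindles, and its intron hosts a microRNA. Its lead transcript, the one with the most reads, was isotig33608 (677 bases). This transcript stood at 158 RPKM in hibernation and 40.1 in activity in the subadult, and at 66.3 and 23.5 in the adult. Both hibernating libraries lay above both active ones. The means were 112 ± 64.5 and 31.8 ± 11.8 RPKM (SD, n = 2 bears), and the level in hibernation was 3.93-fold that in activity in the subadult and 2.83-fold in the adult.

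The other 6 MYH7B transcripts were lower in level and pointed the same way. Transcript isotig28463 measured 77.1 and 15.7 RPKM in the hibernating and active subadult and 24.5 and 7.74 in the adult. The widest fold was that of isotig32640 in the subadult, from 5.06 RPKM in activity to 36.0 in hibernation, against 3.04 and 9.39 in the adult. The remaining 4 (isotig13325, isotig13326, isotig13327 and isotig25683) ranged from 19.2 to 40.2 RPKM in the subadult during hibernation and from 4.63 to 10.1 during activity. Over all 7, hibernation exceeded activity 3.93- to 7.11-fold in the subadult and 2.64- to 3.17-fold in the adult. All 7 matched the same human transcript and may be pieces of the same RNA, so they are not independent measurements. Within the hibernating subadult their levels spanned 19.2 to 158 RPKM.

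In limma's fit the log2 differences of the MYH7B transcripts ran from 1.63 (SE 0.55) to 2.10 (SE 0.62), with 1.72 (SE 0.47) for the lead transcript. None reached an adjusted p of 0.05 (0.541 to 0.565, Benjamini-Hochberg), nor did any of the 9093 named transcripts (0%). At an unadjusted p under 0.05 there were 6 of the 7, beside 9.08% of named transcripts. A score written after NOISeq, the tool the study used, compares each difference between states with all differences between bears of the same state. It is the share of the latter that is no larger in ratio and in absolute size, and transcripts are called at 0.8. All 7 were called higher in hibernation (score 0.938 to 0.981) beside 2.1% of named transcripts. All 7 also had both hibernating libraries above both active ones, as did 34.6% of named transcripts, and were at least 2-fold higher in both bears, as were 0.385%.

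Without the active subadult, the MYH7B log2 differences were 2.05 to 2.42 (limma adjusted p = 0.838 for each). Without the hibernating adult they were 2.33 to 3.04 and all 7 passed the adjusted threshold (limma adjusted p = 0.0015 to 0.0122), and without the hibernating subadult they were 0.75 to 1.16 (limma adjusted p = 0.458 to 0.941). Without the active adult they were 0.99 to 1.77 and none of the 7 had an unadjusted p under 0.05 (limma, 0.0648 to 0.273). In each of the 7 transcripts the difference was larger in the subadult than in the adult, which has no test with a single library on each side.

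**Figure D1:**
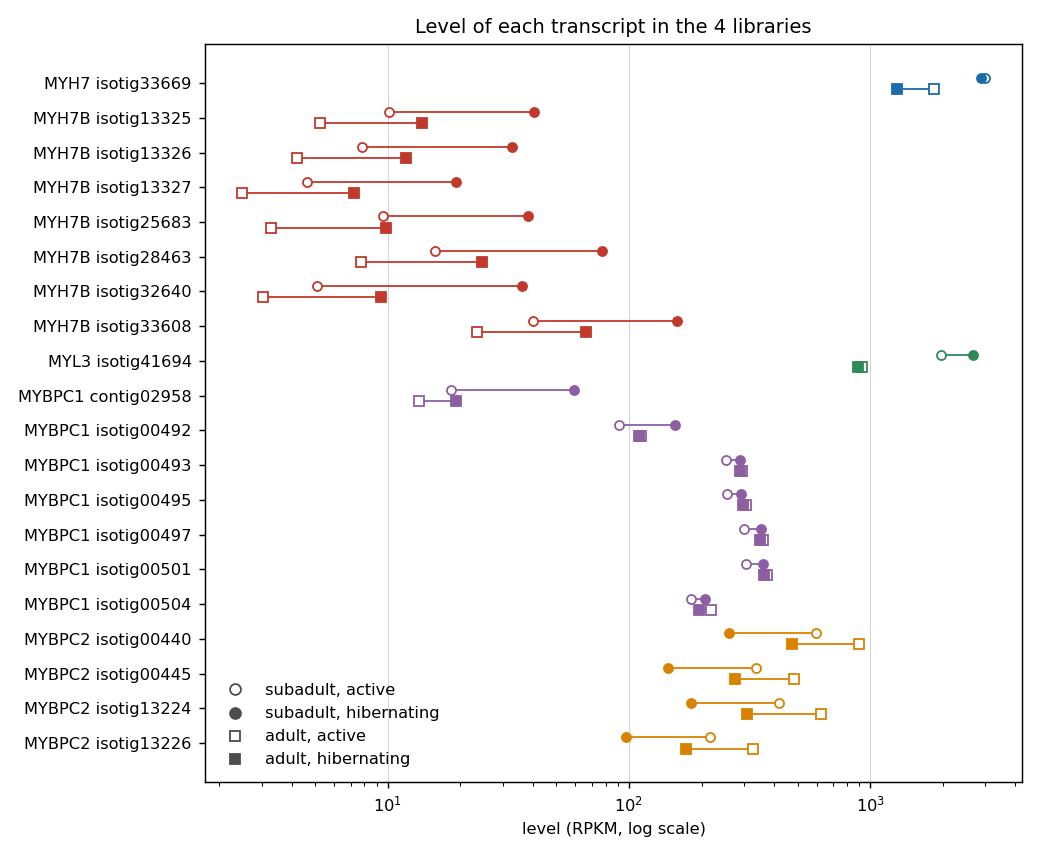
Level of the 20 transcripts in RPKM (log scale) in each of the 4 libraries, with circles for the subadult, squares for the adult, filled symbols for hibernation and open symbols for activity, and a line joining the libraries of a bear. The 7 MYH7B transcripts lie further right in hibernation and the 4 MYBPC2 transcripts further left, while MYH7 and MYL3 separate by bear.

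MYBPC1 is the slow-type myosin-binding protein C, which fast fibres also hold in many muscles. Its lead transcript isotig00495 (5604 bases) had 293 and 255 RPKM in the hibernating and active subadult and 297 and 306 in the hibernating and active adult. The 4 values lay close together, with no gap between states or bears. The means were 295 ± 3.31 RPKM in hibernation and 281 ± 36.1 in activity (SD, n = 2 bears), and the log2 difference was 0.08 (SE 0.25, limma adjusted p = 0.913). Without the active subadult it was -0.053.

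Of the 7 MYBPC1 transcripts, 6 were higher in hibernation in the subadult and lower in the adult. Among them isotig00492, at 7130 bases the longest, had the largest difference in the subadult, from 90.8 RPKM in activity to 155 in hibernation, against 113 and 110.5 in the adult. Transcripts isotig00493, isotig00495, isotig00497 and isotig00501 held nearly equal read numbers, 78880 to 82191 in the hibernating subadult, with the highest 1.04 to 1.07 times the lowest in each library. They may therefore share reads. How the authors assigned reads that fit several transcripts is not given in the sources used here, and these 4 were not taken as independent of each other.

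Transcripts contig02958 (3263 bases) and isotig00492 each matched a human MYBPC1 transcript that no other member matched. In its pattern over the libraries, contig02958 differed from the rest. It measured 59.4 and 18.2 RPKM in the hibernating and active subadult, and 19.1 and 13.5 in the hibernating and active adult. Both hibernating libraries lay above both active ones, although the hibernating adult was only just above the active subadult. Its log2 differences were 1.68 and 0.49, with a mean of 1.09 (SE 0.53, limma adjusted p = 0.587) and a score of 0.940, the only MYBPC1 transcript called. Without the hibernating adult the log2 difference was 1.89 (limma adjusted p = 0.0269), without the hibernating subadult it was 0.28 and without the active subadult 1.30.

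MYBPC2 is the fast-type myosin-binding protein C. Its lead transcript isotig13224 (1358 bases) stood at 181 RPKM in hibernation and 421 in activity in the subadult, and at 309 and 626 in the adult. Both hibernating libraries lay below both active ones, and the subadult lay below the adult in each state. The means were 245 ± 90.7 RPKM in hibernation and 523 ± 145 in activity (SD, n = 2 bears). The level in hibernation was 0.429 of that in activity in the subadult and 0.493 in the adult.

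The other 3 MYBPC2 transcripts gave similar ratios at other levels. Transcript isotig00440 measured 259 and 595 RPKM in the hibernating and active subadult and 473 and 896 in the adult. Transcript isotig00445 measured 145 and 336 in the subadult and 275 and 486 in the adult. Transcript isotig13226 was the lowest, at 96.9 and 217 in the subadult and 172 and 326 in the adult. In each of them both hibernating values were under both active values, and all 4 matched the same human transcript.

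The log2 differences of the 4 MYBPC2 transcripts lay between -1.12 (SE 0.38) and -1.01 (SE 0.39), a much narrower range than that of MYH7B. Their adjusted p-values were 0.546 to 0.549 (limma, Benjamini-Hochberg) and their unadjusted ones 0.0259 to 0.0433 (limma). The score called all 4 lower in hibernation (0.890 to 0.922), beside 1.51% of named transcripts. Both hibernating libraries were below both active ones in 8.8% of named transcripts, and 0.297% were at least 2-fold lower in both bears, which held for the lead MYBPC2 transcript only. Without the active subadult the log2 differences were -1.40 to -1.28, and over all libraries left out in turn they ranged from -1.50 to -0.55. Their sign could not change, since both hibernating libraries lay below both active ones.

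Counted over the 20 transcripts, 8 were higher in hibernation in both bears, 5 were lower in both and 7 moved in opposite directions. The matching shares of all named transcripts are not given, here or for the gene lists, so these direction counts have no baseline. Both hibernating libraries lay above both active ones in 8 of the 20, beside 34.6% of named transcripts, and below them in 4, beside 8.8%. The score called 12, or 60%, beside 3.61% of named transcripts, with 7 of the 8 higher ones from MYH7B and all 4 lower ones from MYBPC2. The median log2 difference of all named transcripts was 0.13 (subadult 0.12, adult 0.15). The 16 transcripts of the slow genes thus held every higher call and the 4 of the fast gene every lower one. The genes were picked with earlier results of these libraries known, so these shares describe the members and are no test of slow against fast isoforms.

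**Figure D2:**
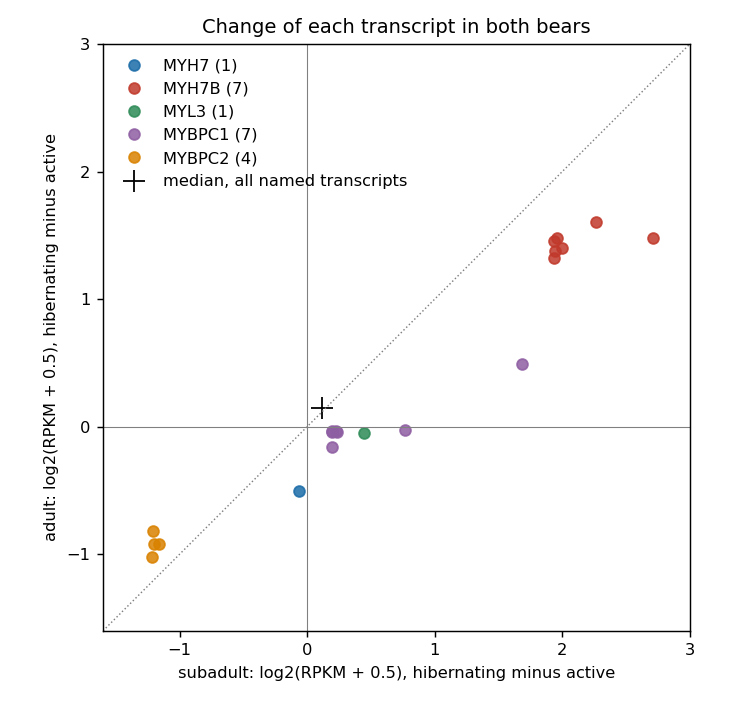
Difference between hibernation and activity in log2(RPKM + 0.5) in the subadult (horizontal axis) and in the adult (vertical axis), 1 point per transcript, with the number of transcripts per gene in the legend, a dotted line of equal difference and a cross at the median of all named transcripts. MYH7B stands at 1.94 to 2.71 in the subadult and 1.32 to 1.60 in the adult, MYBPC2 at -1.22 to -1.16 and -1.02 to -0.82, and the other genes lie nearer to 0 except MYBPC1 contig02958.

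Ratios of lead transcripts within a library do not depend on how libraries are scaled. MYBPC1 to MYBPC2, the slow over the fast myosin-binding protein C, was 0.606 in activity and 1.62 in hibernation in the subadult, and 0.489 and 0.963 in the adult. The ratio was therefore higher in hibernation in both bears, 2.67-fold in the subadult and 1.97-fold in the adult, with MYBPC1 nearly level and MYBPC2 lower. By these lead transcripts the slow form exceeded the fast form only in the hibernating subadult, an order that would change if reads had been split among the MYBPC1 transcripts that may share them.

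The ratio of MYH7 to MYBPC2 was 7.14 in activity and 15.9 in hibernation for the subadult, and 2.94 and 4.19 for the adult. MYL3 to MYBPC2 likewise was 14.8 in hibernation against 4.68 in activity for the subadult, and 2.89 against 1.47 for the adult. For both, the active subadult lay above the hibernating adult, so the states overlapped across bears although each bear was higher in hibernation. MYH7 itself was lower in hibernation in both bears (log2 differences -0.06 and -0.51), but MYBPC2 was lower by more (-1.22 and -1.02). MYH7B to MYBPC2 had the widest difference, at 0.872 against 0.0954 in the subadult (9.15-fold) and 0.215 against 0.0375 in the adult (5.73-fold), and its states did not overlap.

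Between the heavy chains, MYH7B to MYH7 was 0.0134 and 0.0128 in the active subadult and adult and 0.0549 and 0.0512 in the hibernating subadult and adult. For these lead transcripts the bears lay close together within a state, although each gene alone differed between them by 1.63- to 2.38-fold. Other MYH7B transcripts set the bears further apart, up to 1.74-fold in hibernation and 1.79-fold in activity for isotig25683. The ratio was 4.11-fold higher in hibernation in the subadult and 4.01-fold in the adult. With the mean over all MYH7B transcripts weighted by length in place of the lead transcript, the ratio fell to 0.00406 and 0.00340 in activity and 0.0183 and 0.0140 in hibernation, and the folds were 4.50 and 4.13. Taken transcript by transcript over all 7, the ratio was higher in hibernation by 4.11- to 7.44-fold in the subadult and 3.76- to 4.50-fold in the adult, so its level and the fold in the subadult depended on the transcript chosen.

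MYL3 to MYH7, the slow essential light chain over its heavy chain, was 0.655 in activity and 0.933 in hibernation for the subadult, and 0.501 and 0.689 for the adult. It was 1.42-fold and 1.37-fold higher in hibernation, although neither gene alone kept the states apart. The ratios are given as a description and were not tested. An exact two-sided permutation test of 2 against 2 libraries could not go under 0.333.

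**Figure D3:**
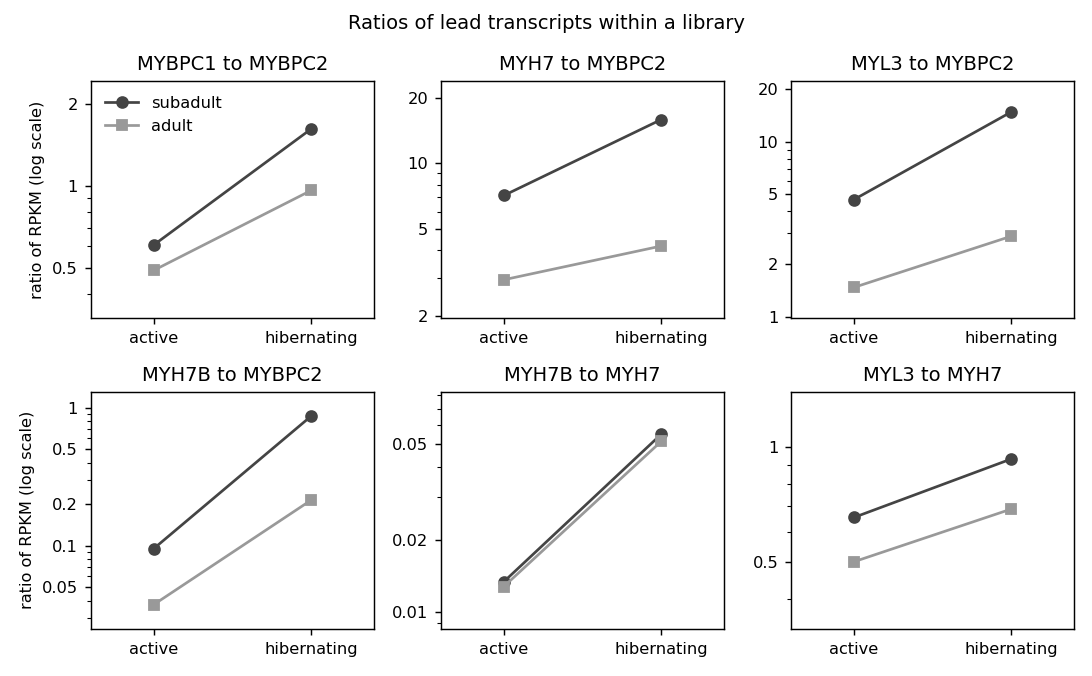
Ratio of the RPKM of lead transcripts within each library (log scale, a separate scale per panel) in activity and hibernation, 1 line per bear. All 6 ratios were higher in hibernation in both bears. They are not independent, since each has MYBPC2 or MYH7 as denominator, and both of these were lower in hibernation in both bears. For these lead transcripts, MYH7B to MYH7 was near level between the bears (0.0134 and 0.0128 active, 0.0549 and 0.0512 hibernating), which did not hold for every MYH7B transcript.

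In order of level, MYH7 came first and MYL3 second in all 4 libraries, and MYH7B last. MYBPC1 (255 to 306 RPKM) lay within the range of MYBPC2 (181 to 626 RPKM) and the order of this pair changed, MYBPC2 standing higher in both active libraries and in the hibernating adult. MYH7 and MYL3 also overlapped over the libraries, so neither neighbouring pair was apart beyond its spread. The place of MYBPC1 carries the same doubt about shared reads. The order holds for these lead transcripts only. It could also differ if the cDNA had been normalised by nuclease, which lowers abundant transcripts and is not known here. Only MYH7B (23.5 to 158 RPKM) was below all lead transcripts of the other 4 genes in every library.

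Except for some MYBPC1 transcripts, the bears differed in the same sense in both states. The slow genes MYH7, MYL3 and MYH7B were higher in the subadult, MYH7B by 2.38- to 3.86-fold in hibernation and 1.67- to 2.93-fold in activity over its transcripts. MYBPC2 was higher in the adult, by 1.71- to 1.90-fold in hibernation and 1.45- to 1.51-fold in activity. MYBPC1 was near level, its lead transcript in the subadult being 0.984 of that in the adult in hibernation and 0.833 in activity. Over its 7 transcripts this ratio ran from 0.984 to 3.11 in hibernation and from 0.806 to 1.35 in activity, the highest being contig02958 in both. With 1 bear on each side these differences have no test.

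The wider slow and fast fibre programmes were followed with the lead transcript of each gene. These lists include the 5 genes of the report, with MYH7, MYH7B, MYL3 and MYBPC1 among the slow and MYBPC2 among the fast. Their counts and medians are therefore not independent of the members. Of 17 slow fibre genes 11 carried a transcript, and 4 were higher in hibernation in both bears, 2 lower and 5 opposite. Their median log2 difference was 0.20, which is the value of MYL3, beside 0.15 over the lead transcripts of all named genes. Within the slow list MYH7B was the only lead transcript called. Of all 37 transcripts of these genes, 9 were called higher (7 of them from MYH7B) and 0 lower, beside 2.1% and 1.51% of named transcripts. ATP2A2, the slow-type calcium pump of the sarcoplasmic reticulum, was higher in both bears (142 against 112 RPKM in the subadult, 67.9 against 56.9 in the adult), and the slow tropomyosin TPM3 was also higher in both (log2 differences 0.17 and 0.62). Sarcolipin (SLN), an inhibitor of that pump, gave -0.67 and 0.58.

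On the fast side 9 of 19 genes carried a transcript, and 1 was higher in both bears, 5 were lower and 3 were opposite, with a median log2 difference of -0.23. That median was the value of a gene at only 1.58 to 3.36 RPKM that moved in opposite directions in the bears. MYBPC2 was again the only lead transcript called. Of all 23 transcripts of the fast genes, 1 was called higher (TPM1 isotig00608) and 4 lower (all from MYBPC2), beside 2.1% and 1.51% of named transcripts. MYH1, the type IIx heavy chain, stood at 2054 RPKM in hibernation and 4823 in activity in the subadult, against 7625 and 7801 in the adult, so that only the subadult showed a wide difference. MYH2, the type IIa heavy chain, was the 1 gene higher in both bears, with 3841 against 2755 RPKM in the subadult and 3863 against 3493 in the adult. The fast troponin C gene TNNC2 gave log2 differences of -0.63 and -0.27, and the fast calcium pump ATP2A1 -0.27 and -0.12. Adult fast heavy chains are near-identical in long stretches, so reads of MYH1, MYH2 and MYH8 could be split between them. Light chain and troponin genes that usually define the fibre kinds, among them MYL2, TNNI1 and TNNT1 (slow) and MYL1, MYLPF, TNNI2 and TNNT3 (fast), were not analysed here.

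**Figure D4:**
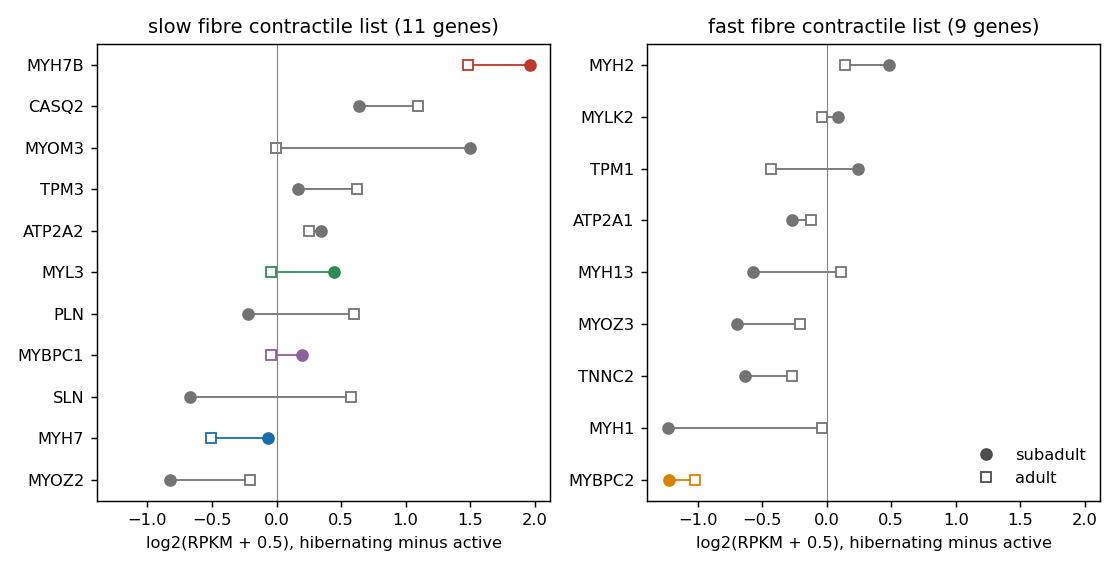
Difference between hibernation and activity in log2(RPKM + 0.5) of the lead transcript of each gene of the slow list (left) and the fast list (right), with filled circles for the subadult, open squares for the adult and the 5 genes of the report in colour. MYH7B (1.96 and 1.48) is highest in the slow list in both bears. In the fast list MYBPC2 (-1.22 and -1.02) is lowest in the adult, and MYH1 (-1.23) lies beside it in the subadult only.

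Averaged over the states, 8 of the 11 slow lead transcripts were higher in the subadult and 3 were lower (SLN, MYBPC1 and MYOM3), with a median of 0.93 and a range of -0.55 to 1.68 on the log2 scale (subadult minus adult). All 9 fast ones were lower in the subadult (median -0.59). Fibre makeup was not measured in these files, and its part in the differences was not tested.

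Other myosins and their partners were counted in the same way. MYH8, the perinatal heavy chain and the only one of 3 developmental genes with a transcript, gave log2 differences of -0.89 and -0.13. Of 7 cardiac thick and thin filament genes 2 had a transcript. The cardiac actin ACTC1 gave 0.10 and -0.73, and the cardiac troponin I gene TNNI3 was called higher (score 0.969), at 65.4 against 11.7 RPKM in the subadult and 18.9 against 13.4 in the adult.

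Of 9 non-muscle and smooth muscle myosin II genes 6 had a transcript and 4 were higher in hibernation in both bears, 2 being opposite, with a median log2 difference of 0.56. The light chain MYL6 stood at 72.6 against 58.2 RPKM in the subadult and 63.9 against 28.4 in the adult. The only lead transcript called was that of the smooth muscle heavy chain MYH11, at 5.44 against 7.02 RPKM in the subadult and 27.6 against 6.49 in the adult, so its call came from the hibernating adult. MYH11 was also the only 1 of 4 smooth muscle markers with a transcript. Among 10 myosin-binding and thick filament partners 6 had a transcript, 3 higher in both bears and 3 opposite, with none of the lead transcripts called and a median log2 difference of 0.10. The ubiquitin ligase TRIM63, known as MuRF1 in muscle atrophy, gave log2 differences of -0.71 and 0.17.

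Of the skeletal muscle identity genes none was higher in both bears, 2 were lower and 2 were opposite. TTN, the giant sarcomere spring, had 17 transcripts that did not move together, with 6 lower in both bears, 1 higher and 10 opposite. Its lead transcript just reached the score (0.801), at 699.7 against 794 RPKM in the subadult and 155 against 598 in the adult, and 2 of the 17 were called, both lower. The fat-cell genes gave 2 lower in both bears and 2 opposite, with a median log2 difference of -1.59 (subadult -2.78, adult -0.40) and 3 called lower. The connective tissue genes gave 2 higher, 1 lower and 2 opposite, with 1 called higher and 2 lower and a median of -0.48. The endothelial list had PECAM1 alone (7.53 to 13.0 RPKM, log2 differences -0.25 and 0.59), and none of 8 blood genes had a transcript. The part of these cells in the differences of MYH7B and MYBPC2 was not tested.

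The genes whose lead transcripts had the most similar pattern over the 4 libraries were found by the distance between centred log2(RPKM + 0.5) values, over 4868 other genes. Nearest to MYH7 were RHOBTB3 (distance 0.157), CACNA2D1 and SPG11. Nearest to MYL3 were PRKAA2 (0.0869), XPO4 and TTYH3, and nearest to MYBPC1 were CNIH4 (0.0245), ST3GAL5 and TRABD. MYBPC2 had C1R (0.393), FOSL2 and FCGR3A as its nearest genes. For MYH7B the nearest were ARHGEF17 (0.534), CACNA1C and DNAJB1, of which ARHGEF17 stood at 26.8 and 3.97 RPKM in the hibernating and active subadult and at 7.85 and 3.39 in the adult. These distances grow with a gene's own spread over the libraries, which was 2.00 for MYH7B and 0.202 for MYBPC1, so they are not ranked between the 5 genes, and 4 libraries give them little resolution.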

How the data were processed

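Poly(A) RNA of gastrocnemius biopsies was sequenced as single-end Illumina libraries. The authors assembled transcripts de novo from Roche long reads and Illumina paired-end reads (Newbler 2.3, SOAPdenovo), named them by BLAST to human proteins (Ensembl 66), aligned the single-end reads with SOAP2 (at most 2 mismatches) and deposited RPKM per transcript. Whether the cDNA of these libraries had been normalised by nuclease, which lowers abundant transcripts, is not given in the sources used here. The 3 pooled or paired-end samples were not analysed here.

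Each transcript's log2(RPKM + 0.5) was tested for the state (2 libraries against 2) by limma 3.58.1 under R 4.3.3, two-sided, with a trended prior and Benjamini-Hochberg adjustment over 9093 named transcripts. A score written after NOISeq, which was not installed, used all 26614 transcripts as noise (53228 differences). Both were run on simulated data with planted changes larger than those of any member and no pairing by bear. How well they find changes of the members' size was not tested. Python 3.11.15, pandas 2.3.3, numpy 2.4.6 and matplotlib 3.10.9 served for tables and plots. Aligned reads were estimated from the step of RPKM times length among 500 low values per library (92.6% to 99.4% whole within 0.1 read). The same animals were sampled in both states, which pairs the libraries by bear (subadult minus adult in hibernation against activity, Pearson r = 0.356 across transcripts). With 1 biopsy per bear and state, p-values measure the spread between the bears.

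Named were all transcripts of the 5 genes, from 12 gene lists up to 5 genes with the most reads or called by the score, and 3 nearest genes per member. The members and lists were chosen with earlier results of these data known. Alternatives were the pseudocount (0.1, 1), median-ratio and upper-quartile scaling, a mean RPKM of at least 5, the prior without trend, the bear as replicate block, each library left out, a score of 0.9, noise from named transcripts, and the mean, longest or median transcript of a gene.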

Additional observations from a re-analysis of the deposited data

How the results depend on the processing

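Over 11 alternatives and 20 transcripts, 191 of 220 log2 differences kept their direction and their side of the threshold, including all those of MYBPC2. Another 21 changed sign, all in 7 transcripts of MYH7, MYL3 and MYBPC1 near 0. Scaling moved every difference, by -0.11 and -0.22 (subadult, adult) with the median ratio and by -0.19 and -0.22 with the upper quartile. MYL3 became -0.0049 with upper-quartile scaling. The MYBPC1 transcripts isotig00493, isotig00495, isotig00497, isotig00501 and isotig00504 became -0.087, -0.087, -0.070, -0.070 and -0.15 with median-ratio scaling and -0.13, -0.13, -0.11, -0.11 and -0.19 with upper-quartile scaling.

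With single libraries left out (limma pools the spread, so a lone library is assumed to vary like the others), the differences ranged from -0.86 to 0.29 for MYH7 and from -0.59 to 0.99 for MYL3. For the same MYBPC1 transcripts they ranged from -0.037 to 0.19, -0.053 to 0.21, -0.032 to 0.22, -0.049 to 0.24 and -0.12 to 0.15. Named transcripts with an adjusted p under 0.05 (limma) ranged from 0 to 92 and members from 0 to 8, the 92 and the 8 without the hibernating adult, where MYH7B and MYBPC1 contig02958 passed. Members with an unadjusted p under 0.05 were 10 with all libraries and 0 without the active adult.

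The bear as replicate block left 0 adjusted calls, so it changed no call by the adjusted p. It gave 1229 unadjusted p under 0.05 (826 without it), 12 of them members (10 without it). The SE of the lead transcripts went from 0.47 to 0.22 for MYH7B and from 0.38 to 0.24 for MYBPC2 (limma adjusted p = 0.34 for both with the block). The score called 8 members higher in each of its 5 alternatives and 4 lower, or 3 at 0.9. Over named transcripts its 191 higher and 137 lower calls became 109 and 216 with median-ratio scaling, 99 and 229 with upper-quartile scaling, 49 and 49 at a score of 0.9, and 92 and 78 at a mean RPKM of at least 5. The longest MYBPC1 transcript gave 0.37 in place of 0.08. Depth limits little here, since the smallest member value rests on 98 reads. The number of bears limits the tests.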

Other observations

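Beside MYBPC1 contig02958 in the assembly's numbering stands contig02955 (1375 bases), which carried no gene name and was looked at after its values were seen. It measured 51.6 and 14.4 RPKM in the hibernating and active subadult and 23.0 and 16.1 in the hibernating and active adult. Both hibernating values lay above both active ones, as for contig02958. The unnamed isotig00502 (2713 bases), numbered among the MYBPC1 transcripts, did not follow, at 25.7 and 40.6 RPKM in the hibernating and active subadult and 43.3 and 29.9 in the adult. Whether either belongs to the same gene was not tested.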
